A study of Bos indicus with 5 samples.

Results

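Potassium channel genes were examined in the oviduct of Nelore cows, in the ampulla, where fertilization takes place. Members were all entries of the ampulla expression table whose gene symbol began with KCN, the stem shared by potassium channel genes, followed by a family letter and a number or letters. This gave 92 entries out of 24616 genes, with 91 different symbols because KCNMB3 was listed under 2 Ensembl identifiers. By symbol, 39 entries were voltage-gated channels, 8 were calcium-activated or related channels, 14 were inward rectifiers, 15 were two-pore channels and 16 were auxiliary subunits or regulators.

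Potassium channels let potassium leave the cell along its gradient and so hold the membrane potential negative. In smooth muscle this limits calcium entry and contraction, and in secretory epithelium it provides the driving force for chloride and fluid secretion. Voltage-gated channels open on depolarization, calcium-activated channels couple the membrane potential to intracellular calcium, inward rectifiers and two-pore channels carry current near rest, and auxiliary subunits set the gating and trafficking of the pore subunits. Both muscle contraction and tubal fluid take part in the transport of gametes and embryos through the oviduct.

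Tissue came from healthy multiparous cows. The LF/LCL group (large follicle and large corpus luteum, 2 libraries) and the SF/SCL group (small follicle and small corpus luteum, 3 libraries) differed in their hormone treatment. All cows were pre-synchronized with the prostaglandin F2 alpha (PGF) analog cloprostenol (0.5 mg) and the GnRH agonist buserelin (1 µg). All received a 1 g progesterone device with 2 mg estradiol benzoate on day -10, PGF at device removal and again 6 h later, and the GnRH agonist on day 0. In LF/LCL, PGF was also given when the device was inserted, and the device was removed 42 h before GnRH instead of 30 h. The ampulla was taken on day 4. Each library came from a different animal. The study kept the cows that ranked highest or lowest for follicle, corpus luteum and steroid measurements, so the groups are extremes of the treated cows and not random samples of them. A further LF/LCL library was left out by the study for its low read number and was not analysed here.

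The libraries held between 13418278 and 19592174 reads assigned to genes. The tissue spans the whole wall of the tube, and markers of its cell types were present in every library. Over the 5 libraries, the secretory marker OVGP1 ranged from 117179 to 147247 normalized reads and the ciliated cell marker FOXJ1 from 8481 to 12698. Summed over 11 genes, smooth muscle markers stood at 126702 and 65504 normalized reads in LF/LCL against 40882, 43586 and 17523 in SF/SCL. All 11 had higher means in LF/LCL, with a median log2 fold change of 1.47. Summed over 11 genes, ciliated cell markers stood at 42542 and 54611 in LF/LCL against 66187, 65331 and 66105 in SF/SCL, and 0 of the 10 tested were higher in LF/LCL. Neither sum overlapped between the groups. Fewer cells of a type and less RNA per cell cannot be told apart in such bulk samples.

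A read was found for 78 of the 92 entries. The other 14 had no read in any library. A count of 0 was taken to allow up to 3 reads in each library by itself. That is 2.33 to 3.52 normalized reads (a count divided by the size factor of its library). These limits cover counting error only. Another 26 entries had reads but a mean of 5 normalized reads or less, and they were not tested. The remaining 52 passed that filter. They included 2 genes with a mean of 1000 or more, 20 with a mean from 100 to 1000 and 30 below that. As the table gives no transcript lengths, levels are compared between libraries for the same gene and not between genes.

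**Figure D1:**
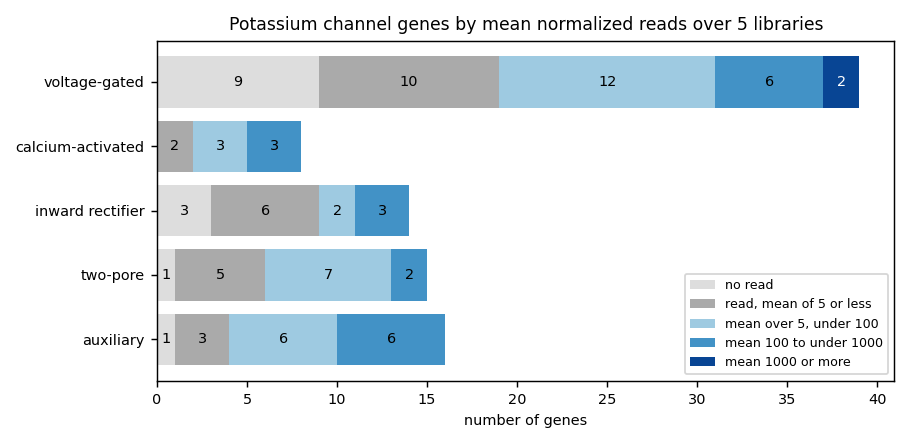
Number of potassium channel genes (x axis) in each class (y axis), split by the mean normalized read number over the 5 libraries. The voltage-gated class held 9 of the 14 genes with no read and both genes with a mean of 1000 or more.

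The groups were compared with limma on log2(normalized reads + 1), fitted over all 15815 genes with a mean over 5. Fold changes are LF/LCL minus SF/SCL on this scale, which understates the change of genes with few reads. With p-values adjusted over all genes, 0 of the 52 potassium channel genes had an adjusted p under 0.05 in limma, where 0% of all genes passed, and the smallest adjusted p was 0.178. The edgeR quasi-likelihood test and limma-voom on whole reads called 0 members as well, while 16 and 14 had an unadjusted p under 0.05 in these tests. DESeq2 on the same reads called 5 members (9.62%) at an adjusted p under 0.05, where it called 2.89% of all genes tested. All 5, among them KCNS3, KCNA5, KCNRG and KCNAB1, were higher in SF/SCL, a direction in which DESeq2 called 1.5% of all genes. It called 0 members as higher in LF/LCL, beside 1.38% of all genes. The ciliated cell marker sums given above were also higher in every SF/SCL library, and their part in these calls was not tested. Without LF/LCL replicate 1, DESeq2 called 3 members, among them KCNS3 and KCNA5, and it called these 3 in all 5 runs with a library left out. It called 1.69% of all genes in the run without LF/LCL replicate 1.

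At an unadjusted limma p under 0.05 stood 16 of the 52 genes (30.8%), beside 11.5% of all genes tested. Of these, 7 had higher values in LF/LCL, beside 5.64% of all genes, and 9 in SF/SCL, beside 5.86%. The count was 10 without LF/LCL replicate 1, where 7.8% of all genes were under it. KCNA5, KCNS3 and KCNRG were under it in all 5 fits with a library left out. The libraries of the groups did not overlap for 23 genes (44.2%), compared with 30.1% of all genes. LF/LCL was above SF/SCL for 11 (15% of all genes) and below it for 12 (15.1%). Without LF/LCL replicate 2 the count was 38 of 52, where 57.1% of all genes did not overlap. Of the tested genes 6 passed the filter through 1 group only, with a mean of 5 or less in the other, and so had to differ in mean. KCNK3 is 1 of the 16, and KCNK2, KCNK3 and KCNN1 are 3 of the 23, which leaves 15 and 20 without them. The median log2 fold change of the 52 genes was 0.19, beside 0.01 over all genes, and the median size of the change was 0.80, beside 0.21. The genes compared were not matched for read number, and 30 of the 52 had a mean under 100, so these sizes are a description only. The members spread to both sides, 31 with a positive and 21 with a negative log2 fold change.

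**Figure D2:**
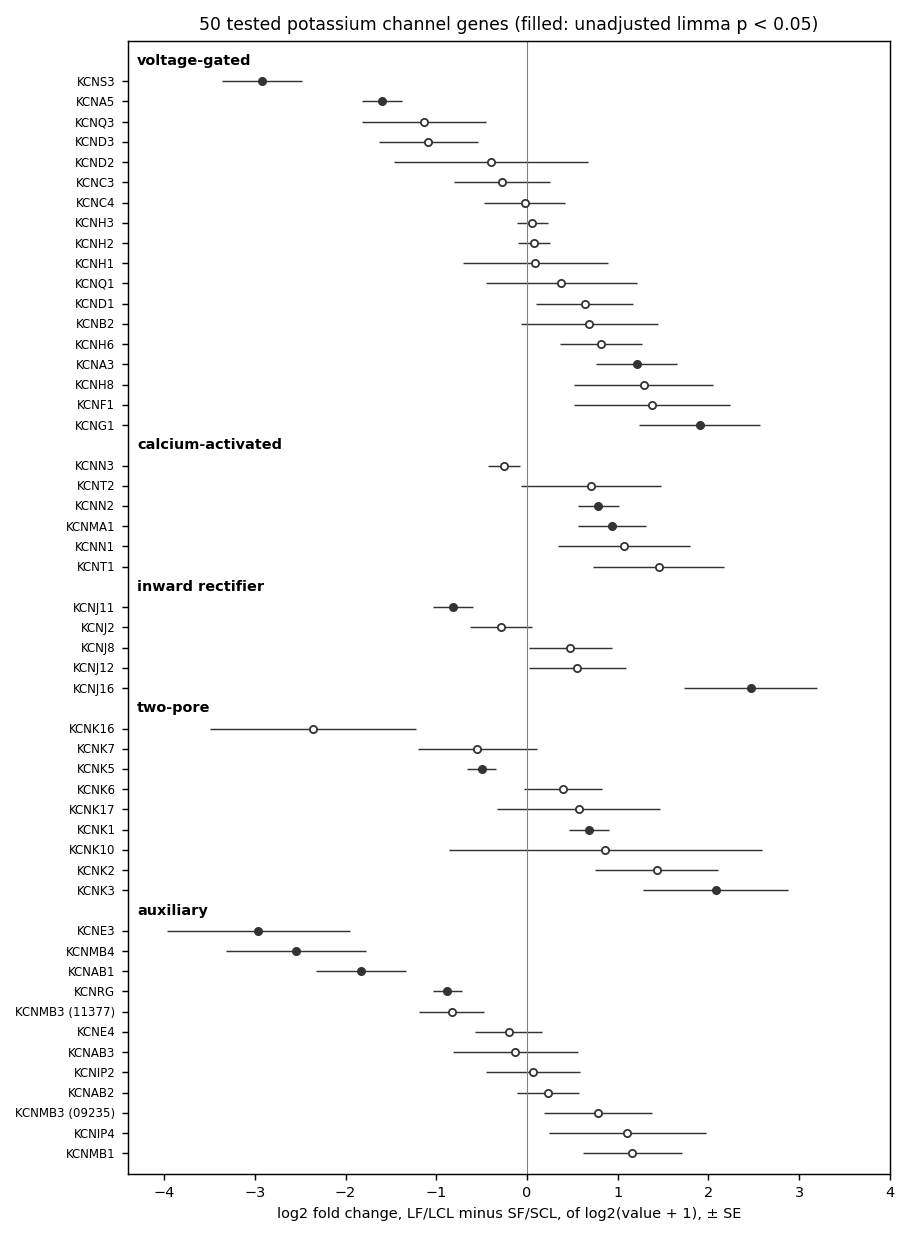
Log2 fold change (x axis, LF/LCL minus SF/SCL of log2(normalized reads + 1), ± SE) of 50 of the 52 tested potassium channel genes (y axis) by class, with filled points for an unadjusted limma p under 0.05. Values run from -2.96 (KCNE3) to 2.47 (KCNJ16), and the filled points of the auxiliary class all lie below 0.

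Among the voltage-gated channels, 20 of 39 were tested. An unadjusted limma p under 0.05 was found for 5 (25%), beside 11.5% of all genes. Of the 5, 3, KCNS3 and KCNA5 among them, were higher in SF/SCL, and 2, KCNG1 and KCNA3, had higher values in LF/LCL. The other 15 were not under it. Groups without overlap were seen for 7 genes, LF/LCL being above for 3 and below for 4. This share of 35% was close to the 30.1% of all genes. The class had a median log2 fold change of 0.08, which was -0.03 without LF/LCL replicate 1, -0.0032 without SF/SCL replicate 2 and 0.24 without LF/LCL replicate 2.

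KCNS3 encodes a silent subunit that forms no channel on its own and changes the gating of voltage-gated pore subunits that it joins. KCNS3 had 24.6 and 64.9 normalized reads in the LF/LCL libraries and 237, 346 and 365 in the SF/SCL libraries. Every SF/SCL library lay far above both LF/LCL libraries, and the LF/LCL libraries also differed from each other. Means were 44.7 ± 28.4 (SD, n = 2) and 316 ± 69.0 (SD, n = 3), a 7.06-fold higher mean in SF/SCL. The log2 fold change was -2.92 ± 0.44 (SE), with an adjusted p of 0.178 in limma and 3.09e-07 in DESeq2. It ranged from -3.60 to -2.24 when single libraries were left out.

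KCNA5 encodes a pore subunit of delayed rectifier channels, known from atrial and vascular muscle. KCNA5 had 103 and 106 normalized reads in LF/LCL against 268, 392 and 308 in SF/SCL. The LF/LCL libraries were nearly equal, and the lowest SF/SCL library was above both. For KCNA5, the mean in SF/SCL was 3.09-fold that in LF/LCL, at 323 ± 63.0 (SD, n = 3) against 104 ± 1.63 (SD, n = 2). limma gave KCNA5 a log2 fold change of -1.60 ± 0.22 (SE) and an adjusted p of 0.178, and DESeq2 an adjusted p of 1.74e-06.

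KCNQ3, which assembles with other KCNQ pores, had 5.86 and 11.6 normalized reads in LF/LCL against 38.5, 11.7 and 16.1 in SF/SCL. Its groups were separated by less than 1 normalized read, and the log2 fold change was -1.14 ± 0.68. KCNQ1, the epithelial and cardiac member of the family, had 9.38 and 7.74 normalized reads in LF/LCL against 3.12, 17.1 and 4.29 in SF/SCL, and its groups overlapped.

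KCNG1, like KCNS3, encodes a silent subunit. KCNG1 had 765 and 595 normalized reads in LF/LCL against 315, 266 and 68.7 in SF/SCL. Both LF/LCL libraries were higher than all SF/SCL libraries, in which replicate 3 was lowest. Its mean was 3.14-fold higher in LF/LCL, at 680.0 ± 120 (SD, n = 2) against 217 ± 130.4 (SD, n = 3). limma gave KCNG1 a log2 fold change of 1.90 ± 0.66 (SE) and an adjusted p of 0.381, and the adjusted p was 0.092 in DESeq2. Without SF/SCL replicate 3 the log2 fold change was 1.22, and both runs of DESeq2 without SF/SCL replicate 1 or replicate 3 called the gene.

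KCNA3, which encodes a pore subunit known from T lymphocytes, was the other voltage-gated gene with higher values in LF/LCL and an unadjusted p under 0.05. KCNA3 had 31.7 and 33.9 normalized reads in LF/LCL against 16.6, 14.0 and 10.7 in SF/SCL. KCNA3 did not overlap between the groups. Its log2 fold change of 1.21 ± 0.45 (SE) came with an adjusted p of 0.396 in limma. The T cell marker CD3E also stood higher in LF/LCL, with 262 and 329 normalized reads against 165, 193 and 135. Of the 8 immune markers tested 6 were higher in LF/LCL and 2, CD68 and CD14, in SF/SCL. An unadjusted limma p under 0.05 was found for 5 (CD3E, CD3D, CD52, IL2RG and PTPRC), all higher in LF/LCL, beside 5.64% of all genes. Over all 10 immune markers found the summed level was 2321 and 3127 against 2529, 1460 and 2434, with overlap. CSF1R, with overlapping groups, and PTPRC made up much of that sum. The part of the immune markers in the KCNA3 values was not tested. With 1 of the libraries left out, KCNA3 kept an unadjusted p under 0.05 in 1 of 5 fits.

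The voltage-gated genes with the highest normalized read numbers, KCNH3 and KCNH2, had groups that overlapped. KCNH3 had 2272 and 1922 normalized reads in LF/LCL against 2020, 1679 and 2392 in SF/SCL. KCNH2, known for cardiac repolarization and also expressed in smooth muscle, had 1827 and 1268 in LF/LCL against 1477, 1320.4 and 1548 in SF/SCL. Their log2 fold changes were 0.06 ± 0.17 and 0.07 ± 0.18 (SE). KCNH8, a relative of KCNH3, had 23.5 and 27.1 normalized reads in LF/LCL against 17.7, 14.8 and 3.22 in SF/SCL. Its groups did not overlap, and the log2 fold change was 1.29 ± 0.77.

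The KCND genes encode the pores of transient A-type channels. KCND3 had 32.8 and 111 normalized reads in LF/LCL against 141, 162 and 95.5 in SF/SCL. LF/LCL replicate 1 was the lowest library, while replicate 2 lay within the SF/SCL range. DESeq2 called KCND3 without LF/LCL replicate 2, where the limma log2 fold change was -1.95, and it was -0.22 without LF/LCL replicate 1. KCND1 had 56.3 and 28.1 in LF/LCL against 26.0, 16.3 and 37.6 in SF/SCL, also with an overlap. The log2 fold changes were -1.09 ± 0.55 for KCND3, 0.64 ± 0.53 for KCND1 and -0.40 ± 1.07 for KCND2, which was low in every library. The KCND partners KCNIP2 and KCNIP4 had log2 fold changes of 0.06 ± 0.52 and 1.10 ± 0.86, and DPP6 one of 0.49 ± 0.26. KCNIP1 had at most 3 reads in a library.

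Other KCNA genes were scarce. KCNA1 and KCNA10 had no read, KCNA6 and KCNA7 had at most 1 read in a library, and KCNA4 had at most 3. KCNA2 had 7 and 8 reads in LF/LCL against 0, 2 and 3 in SF/SCL, which kept it under the filter. Over the whole class, 9 entries had no read and 10 had reads but a mean of 5 or less.

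**Figure D3:**
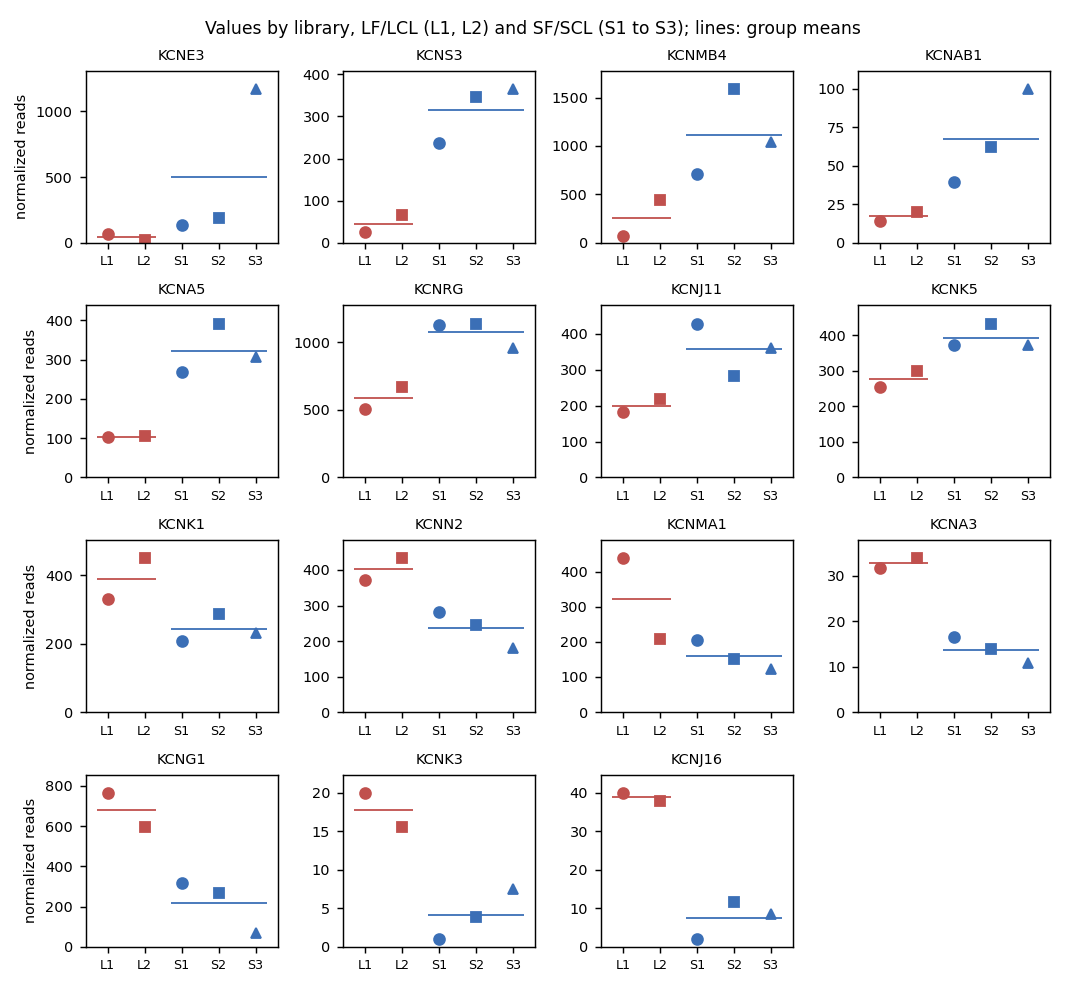
Normalized reads (y axis, from 0) of 15 of the 16 potassium channel genes with an unadjusted limma p under 0.05, 1 point per library (x axis, L1 and L2 for LF/LCL, S1 to S3 for SF/SCL), with lines at the group means. The 8 genes higher in SF/SCL come first and the 7 higher in LF/LCL follow, and the groups do not overlap in any panel.

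In the calcium-activated class 6 of 8 genes were tested, and 5 of them had higher means in LF/LCL. KCNMA1 and KCNN2 (33.3% of the 6) had an unadjusted limma p under 0.05, beside 11.5% of all genes, and the other 4 did not. Of the 4 genes without overlap (66.7%, beside 30.1% of all genes), 3 were above in LF/LCL. KCNN1, among these 3 and among the 5 with higher means, passed the filter only through LF/LCL and so had to differ in mean. The class median log2 fold change was 0.86. No gene of the class was called by any of the tools with all libraries.

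KCNMA1 encodes the pore of the large conductance (BK) channel, which opens with both calcium and depolarization. KCNMA1 had 437 and 207 normalized reads in LF/LCL against 205, 152 and 123 in SF/SCL. LF/LCL replicate 1 was the high library, and replicate 2 was just above the highest SF/SCL library. The log2 fold change of 0.94 ± 0.38 (SE) had an adjusted p of 0.426 in limma and 0.21 in DESeq2. It was 0.40 without LF/LCL replicate 1 and 1.47 without LF/LCL replicate 2, where DESeq2 called the gene. LF/LCL replicate 1 also had the highest sum of smooth muscle markers, 126702 normalized reads, and its part in the KCNMA1 values was not tested. KCNMA1 is also on lists that the study drew from the isthmus of these cows, and KCNA4, the other member on them, was too low to test.

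The KCNN genes encode small conductance channels opened by calcium through calmodulin. KCNN2 had 373 and 433 normalized reads in LF/LCL against 283, 246 and 180.3 in SF/SCL. KCNN3 had 279 and 278 in LF/LCL against 308, 303 and 392 in SF/SCL. Neither gene had overlapping groups, but they differed in opposite directions, with log2 fold changes of 0.79 ± 0.23 and -0.25 ± 0.17 (SE) and adjusted p of 0.324 and 0.632 in limma. KCNN1 had 11.7 and 5.81 in LF/LCL against 3.12, 2.33 and 5.37 in SF/SCL, so that its groups were separated by less than 1 read. KCNN4, the intermediate conductance channel of epithelial and blood cells, had 2 to 5 reads in a library. Of the sodium-activated relatives, KCNT1 had 61.0 and 180.0 normalized reads in LF/LCL against 45.7, 17.1 and 67.6 in SF/SCL, with overlapping groups.

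Of the 14 inward rectifiers 5 were tested, 3 with a positive and 2 with a negative log2 fold change. An unadjusted limma p under 0.05 was found for KCNJ11, higher in SF/SCL, and KCNJ16, higher in LF/LCL, and not for the other 3. This was 40% of the 5, beside 11.5% of all genes. KCNJ11 and KCNJ16 were also the 2 genes (40% of the 5) without overlap, beside 30.1% of all genes. The class median log2 fold change was 0.48, but -0.01 without LF/LCL replicate 1 and 0.22 without SF/SCL replicate 1.

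KCNJ11 encodes the pore of channels closed by ATP, for which ABCC8 encodes the sulfonylurea receptor. KCNJ11 had 182 and 219 normalized reads in LF/LCL against 428, 281 and 362 in SF/SCL. All SF/SCL libraries were higher, and the mean was 1.78-fold that of LF/LCL, with 357 ± 73.6 (SD, n = 3) against 200.3 ± 26.1 (SD, n = 2). limma gave KCNJ11 a log2 fold change of -0.82 ± 0.22 (SE) and an adjusted p of 0.308, and the DESeq2 value was 0.0752, with a call when SF/SCL replicate 2 was left out. ABCC8 had 276 and 478 in LF/LCL against 857, 320.2 and 676 in SF/SCL, and overlapped. The related pore gene KCNJ8, known from vascular muscle, had 165 and 83.2 in LF/LCL against 63.4, 69.9 and 133 in SF/SCL. Its partner ABCC9 had 389 and 130 in LF/LCL against 171, 107 and 152 in SF/SCL. Both overlapped, with LF/LCL replicate 1 highest. KCNJ11 had 1.10 and 2.63 reads per KCNJ8 read in LF/LCL against 6.75, 4.02 and 2.72 in SF/SCL.

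KCNJ16 encodes a subunit that makes heteromeric channels sensitive to intracellular pH, often with KCNJ10, and is known from kidney tubules. KCNJ16 had 39.9 and 37.7 normalized reads in LF/LCL against 2.08, 11.7 and 8.59 in SF/SCL. Both LF/LCL libraries were far above the highest SF/SCL library. Its log2 fold change was 2.47 ± 0.74 (SE), with an adjusted p of 0.33 in limma and 0.103 in DESeq2, and the mean was 5.22-fold higher in LF/LCL. The SF/SCL values rest on few reads. KCNJ10 had a mean under the filter.

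KCNJ2, a strong rectifier that sets the resting potential of muscle, had 610 and 502 normalized reads in LF/LCL against 585, 490.4 and 1073 in SF/SCL. SF/SCL replicate 3 was the single high library, and without it the log2 fold change moved from -0.29 to 0.05. KCNJ1, the apical channel of the kidney tubule, had 0 reads in both LF/LCL libraries and 2, 4 and 2 in SF/SCL. With so few reads no fold is given. KCNJ15 had 5 and 10 reads in LF/LCL against 2, 4 and 2 in SF/SCL. Its mean was under the filter, and it was not tested. KCNJ6, KCNJ9 and KCNJ13 had no read.

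Two-pore channels were tested for 9 of 15 genes, of which 6 had higher means in LF/LCL. KCNK1 and KCNK3, higher in LF/LCL, and KCNK5, higher in SF/SCL, had an unadjusted limma p under 0.05, and the other 6 did not. This was 33.3% of the 9, beside 11.5% of all genes. Without overlap were 4 genes (44.4%, beside 30.1% of all genes), LF/LCL being above for 3 of them. KCNK2 and KCNK3, among these 3, passed the filter only through LF/LCL, as did KCNK10, and KCNK16 only through SF/SCL. These genes had to differ in mean, so the share and its direction are a description only. The class median was 0.57 on the log2 scale, but -0.03 without LF/LCL replicate 1 and 0.11 without SF/SCL replicate 1.

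KCNK1 encodes a weak background channel of epithelia. KCNK1 had 331 and 449 normalized reads in LF/LCL against 208, 288 and 231 in SF/SCL. KCNK5 encodes a background channel of transporting epithelia that opens in alkaline solution. KCNK5 had 256 and 298 in LF/LCL against 373, 432 and 371 in SF/SCL. These 2 epithelial genes were separated between the groups in opposite directions. Their log2 fold changes were 0.68 ± 0.22 and -0.50 ± 0.16 (SE), with adjusted p of 0.355 and 0.347 in limma.

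KCNK3 encodes a background channel that closes in acid solution. KCNK3 had 19.9 and 15.5 normalized reads in LF/LCL against 1.04, 3.89 and 7.51 in SF/SCL. KCNK2, whose channel opens with membrane stretch, had 10.6 and 13.6 in LF/LCL against 2.08, 4.66 and 5.37 in SF/SCL. Both were scarce, and they passed the filter only through their LF/LCL values, so that they had to differ. The log2 fold changes of 2.08 ± 0.80 and 1.43 ± 0.68 (SE) and the lack of overlap are given as a description only. KCNK6 had 69.2 and 37.7 in LF/LCL against 31.2, 36.5 and 50.4 in SF/SCL, with overlapping groups. KCNK16 was low in all libraries, with 4.69 and 0 in LF/LCL against 11.4, 3.89 and 29.0 in SF/SCL.

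Among the auxiliary subunits and regulators 12 of 16 were tested, and 7 had a negative log2 fold change. The 4 with an unadjusted limma p under 0.05 (KCNRG, KCNAB1, KCNMB4 and KCNE3) all had higher values in SF/SCL, and the other 8 were not under it. This was 33.3% of the 12, beside 11.5% of all genes, or 5.86% counting only those higher in SF/SCL. Of the 6 genes without overlap (50%, beside 30.1% of all genes), 5 were above in SF/SCL. The class median log2 fold change was -0.17. It was -0.72 without LF/LCL replicate 1 and 0.20 without LF/LCL replicate 2, so its sign rested on these libraries.

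KCNRG encodes a regulator that holds back the assembly of voltage-gated channels. KCNRG had 505 and 669 normalized reads in LF/LCL against 1128, 1135 and 959 in SF/SCL. The SF/SCL libraries were close to each other and above both LF/LCL libraries. Means were 587 ± 116 (SD, n = 2) and 1074 ± 99.6 (SD, n = 3), a 1.83-fold higher mean in SF/SCL. For KCNRG, the log2 fold change was -0.88 ± 0.16 (SE), with an adjusted p of 0.212 in limma and 0.00227 in DESeq2. DESeq2 did not call KCNRG without LF/LCL replicate 1 or without SF/SCL replicate 1.

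KCNAB1 encodes a cytoplasmic beta subunit that gives KCNA channels fast inactivation. KCNAB1 had 14.1 and 20.3 normalized reads in LF/LCL against 39.5, 62.2 and 99.8 in SF/SCL. No SF/SCL library came down to LF/LCL, although the SF/SCL values were spread widely. Means were 17.2 ± 4.42 (SD, n = 2) and 67.2 ± 30.5 (SD, n = 3), or 3.90-fold higher in SF/SCL. The log2 fold change of -1.83 ± 0.50 (SE) had an adjusted p of 0.307 in limma and 0.0468 in DESeq2. DESeq2 called KCNAB1 in 1 of its 5 runs with a library left out, the run without SF/SCL replicate 1. Beside KCNA5, a pore subunit of the same family, KCNAB1 had 0.136 and 0.193 reads per KCNA5 read in LF/LCL against 0.147, 0.159 and 0.324 in SF/SCL, so that the ratio overlapped while both genes were higher in SF/SCL. KCNAB2 had 61.0 and 51.3 in LF/LCL against 55.1, 52.1 and 37.6 in SF/SCL, and KCNAB3 had 24.6 and 5.81 in LF/LCL against 13.5, 14.0 and 12.9 in SF/SCL. Neither was separated, and the direction of KCNAB3 turned in edgeR and DESeq2.

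KCNMB4 and KCNMB1 encode beta subunits of the BK channel. KCNMB4, best known from brain, slows the channel, and KCNMB1, best known from smooth muscle, raises its calcium sensitivity. KCNMB4 had 72.7 and 438 normalized reads in LF/LCL against 706, 1587 and 1036 in SF/SCL. LF/LCL replicate 1 was far below the rest, and the SF/SCL libraries were all higher than both. The log2 fold change of KCNMB4 was -2.55 ± 0.77 (SE), with an adjusted p of 0.344 in limma and 0.273 in DESeq2. It was -1.26 without LF/LCL replicate 1 and -3.83 without LF/LCL replicate 2, where DESeq2 called the gene. KCNMB1 had 691 and 323 in LF/LCL against 169, 403 and 136 in SF/SCL. SF/SCL replicate 2 lay between the LF/LCL libraries, and the log2 fold change was 1.16 ± 0.55 with an adjusted p of 0.491 in limma. It was 0.62 without LF/LCL replicate 1, 1.71 without LF/LCL replicate 2 and 1.63 without SF/SCL replicate 2, where DESeq2 called the gene.

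Relative to the pore gene, KCNMB4 had 0.166 and 2.11 reads per KCNMA1 read in LF/LCL against 3.45, 10.4 and 8.39 in SF/SCL, with no overlap. KCNMB1 had 1.58 and 1.56 reads per KCNMA1 read in LF/LCL against 0.827, 2.65 and 1.10 in SF/SCL, on both sides of the LF/LCL values. KCNMB4 had 0.105 and 1.35 reads per KCNMB1 read in LF/LCL against 4.17, 3.93 and 7.6 in SF/SCL. The subunit ratios were chosen after the values were seen and were not tested. LRRC26, a gamma subunit that lets BK channels of secretory epithelium open near rest, had 37.5 and 47.4 normalized reads in LF/LCL against 1.04, 11.7 and 4.29 in SF/SCL. Its log2 fold change was 3.07 ± 0.86 (SE), with an adjusted p of 0.313 in limma, in the direction opposite to KCNMB4. KCNMA1, KCNMB1 and the sum of smooth muscle markers were all highest in LF/LCL replicate 1, and KCNMB4 was lowest there. The part of cell composition in these values was not tested.

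**Figure D4:**
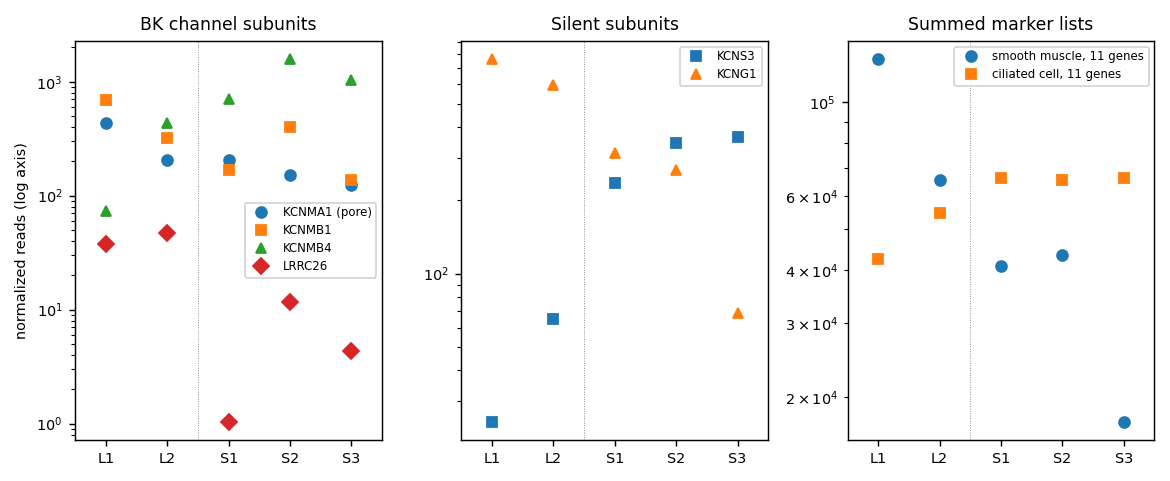
Normalized reads (y axis, log scale) by library (x axis, L1 and L2 for LF/LCL, S1 to S3 for SF/SCL) for the BK channel subunits, for the silent subunits KCNS3 and KCNG1, and for the summed smooth muscle and ciliated cell markers. KCNMB4 is lowest in L1 at 72.7, where KCNMA1 is highest at 437, and KCNS3 is higher and KCNG1 lower in S1 to S3 than in L1 and L2.

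KCNE3 encodes a small subunit that holds KCNQ1 channels open in secretory epithelia. KCNE3 had 69.2 and 22.3 normalized reads in LF/LCL against 138, 190.4 and 1169 in SF/SCL. SF/SCL replicate 3 was far above all others, and the other 2 SF/SCL libraries were still above LF/LCL. The log2 fold change was -2.96 ± 1.01 (SE), and it was -2.01 without SF/SCL replicate 3. The adjusted p was 0.375 in limma and 0.13 in DESeq2. KCNQ1 itself was low in all libraries, as given above. KCNE1 had at most 4 reads in a library and KCNE2 had no read.

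The entries for KCNMB3 differed in direction. ENSBTAG00000011377 had 134 and 142 normalized reads in LF/LCL against 183, 398 and 205 in SF/SCL, with a log2 fold change of -0.83 ± 0.36 (SE). ENSBTAG00000009235 had 22.3 and 18.4 in LF/LCL against 6.24, 17.9 and 12.9 in SF/SCL, with a log2 fold change of 0.78 ± 0.59. Neither had overlapping groups. In the RefSeq annotation of another assembly, KCNMB3 overlaps ZNF639 and PIK3CA, KCNMB1 overlaps KCNIP1, KCNN3 overlaps PMVK and KCNK3 overlaps CIB4. The study left out reads that aligned ambiguously, and strand use in counting was not stated. Reads of such overlapping genes may therefore be missing or counted for the neighbour, and these values are uncertain. KCNIP1 had at most 3 reads in a library, beside 127 to 589 for KCNMB1.

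The study placed KCNRG, KCNJ11, KCNA5 and KCNAB1 on a list of voltage-gated channel genes for SF/SCL ampulla. Each of these 4 had higher values in SF/SCL here, with no overlap between the groups, and DESeq2 called 3 of them (KCNRG, KCNA5 and KCNAB1). The list was chosen on these same libraries and is not independent evidence of a direction. KCNS3, the member with the smallest DESeq2 adjusted p, was not on it.

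Other genes linked to potassium by function or by name, such as pumps, cotransporters and their kinases, channel partners and cyclic nucleotide gated relatives, were also compared. Of 42 listed genes 41 were matched by symbol (FXYD4 was not) and 34 were tested, 15 with a positive and 19 with a negative log2 fold change, with a median log2 fold change of -0.10. At an unadjusted limma p under 0.05 were 7 of the 34 genes, where 11.5% of all genes passed. SLC12A1, LRRC26, WNK1, TMEM38A and ATP1B1, 5 of the 7, had more reads in LF/LCL, beside 5.64% of all genes. KCTD1 and FXYD6 had more reads in SF/SCL, beside 5.86%. KCTD1 is also on the study's list of voltage-gated channel genes for SF/SCL ampulla, which was chosen on these same libraries. limma called 0 of the 34 at an adjusted p under 0.05. DESeq2 called 2, SLC12A1 and FXYD6, where it called 2.89% of all genes tested. SLC12A1, the sodium, potassium and chloride cotransporter of the kidney loop, had 423 and 452 normalized reads in LF/LCL against 167, 96.4 and 139.5 in SF/SCL, well apart. For SLC12A1, the log2 fold change was 1.73 ± 0.27 (SE), with an adjusted p of 0.178 in limma and 5.01e-06 in DESeq2. FXYD6, a modulator of the sodium pump, had a log2 fold change of -0.50 ± 0.13 and a DESeq2 adjusted p of 0.0391. The remaining log2 fold changes were 0.43 for WNK1, 0.71 for TMEM38A, 1.37 for ATP1B1 and -0.41 for KCTD1.

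Other cell type markers are given for all libraries, as several channels are known from particular cells. Secretory cell markers summed to 162984 and 144474 normalized reads in LF/LCL against 142794, 167249 and 157628 in SF/SCL, pericyte markers to 5822 and 3276 against 3738, 2194 and 5311, and endothelial markers to 7683 and 4902 against 6277, 5838 and 8363. Stromal fibroblast markers summed to 77065 and 33150 in LF/LCL against 35390, 20918 and 41125 in SF/SCL, and mesothelial markers to 8873 and 8761 against 10942, 7795 and 9507. These sums overlapped between the groups. The mesothelial sum came mostly from WT1 and says little of the other mesothelial markers. Of the 5 mesothelial markers tested, 1 had a positive and 4 a negative log2 fold change. The secretory sum came mostly from OVGP1 and says little of the other secretory markers. Of the 8 secretory markers tested, 6 had a positive and 2 a negative log2 fold change. For 5 of them, both LF/LCL libraries exceeded every SF/SCL library. An unadjusted limma p under 0.05 was found for 4, all with more reads in LF/LCL, and DESeq2 called WFDC2 and PAX8. Proliferation markers summed to 817 and 478 against 299, 354 and 206, and did not overlap. Neural and glial markers summed to 28003 and 36062 against 20165, 14202 and 10017, also without overlap. That sum came mostly from S100B and says little of the other markers of its list. Of the 6 neural and glial markers tested, 3 had a positive and 3 a negative log2 fold change. DESeq2 called S100B, higher in LF/LCL, and SNAP25, higher in SF/SCL. No marker of these lists was at 0 in all libraries. Their part in the channel values was not tested.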

How the data were processed

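Oviduct ampulla of 5 cows was profiled. Per the study's methods and the submitters' processing notes, polyA libraries were sequenced as read pairs, base calls were made with CASAVA 1.8.2, and reads were aligned to the masked Bos taurus UMD assembly with TopHat2 2.0.8, Bowtie2 2.1.0 and SAMtools 0.1.18, although the cows were Bos indicus. Uniquely mapped reads were counted per Ensembl gene with HTSeq 0.5.4p2, and the authors divided the counts by a DESeq 1.12.1 size factor for each library. The unit of the deposited values is therefore a normalized signal. Only unique reads were kept, so near-identical copies can lose reads.

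In each library 100% of the nonzero values were whole multiples of 1 step (within 0.02 reads), which gave back whole reads. Depth was 13418278 and 16171541 reads for LF/LCL (replicates 1 and 2) and 14785598, 19592174 and 14277845 for SF/SCL (replicates 1 to 3), which limits the precision of scarce genes. Samples were grouped by their titles, which carry different animal numbers, and no batch was given.

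The test was limma 3.58.1 (lmFit and eBayes with trend and robust, R 4.3.3), two-sided, without covariates, on log2(value + 1) for genes with a mean over 5, with Benjamini-Hochberg adjustment over all genes tested. On whole reads, edgeR 4.0.16, DESeq2 1.42.0 and limma-voom were alternatives, as were other scalings, pseudocounts (0.5 and 5), filters and leaving out each library. DESeq2 runs without single libraries were added after the data were seen. Fitting was tested on simulated data.

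Members, classes and lists were chosen with earlier results of these data known. Named were the 3 members of each class with the highest mean value, members with an unadjusted limma p under 0.05 or called by DESeq2 or edgeR, members with a log2 fold change of at least 0.5 and groups that do not overlap, members on the study's lists, and subunit partners. KCNT1, KCNN4, KCNK16 and the scarce inward rectifiers fall outside this rule and were chosen after their values were seen. Symbols were matched to a RefSeq table of another assembly (89 of 91), used only for overlapping neighbours. Some members are counted but not reported here by name. No sequences or coordinates are given.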

Additional observations from a re-analysis of the deposited data

How the results depend on the processing

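No paired analysis was possible because replicate numbers were given in order within each group and do not tie cows across groups. The count of potassium channel genes with an adjusted p under 0.05 was 0 under all alternatives except DESeq2, which called 5. A threshold of 0.1 was applied to limma only, where the count was also 0. In DESeq2, KCNJ11 (adjusted p 0.0752) and KCNG1 (0.092) lay between 0.05 and 0.1. The 5 DESeq2 calls were 0 in edgeR and 0 in limma-voom, and 3 to 7 with a library left out. The 16 genes with an unadjusted p under 0.05 became 10 to 16 with a library left out and 14 to 22 under the other settings. The 23 genes without overlap became 28 to 38 with a library left out, since fewer libraries overlap less often. With a library left out, class medians ranged from -0.72 to 0.20 (auxiliary), -0.03 to 0.24 (voltage-gated), 0.64 to 0.97 (calcium-activated), -0.01 to 0.81 (inward rectifier) and -0.03 to 0.81 (two-pore). Without LF/LCL replicate 1 or 2, the lone library is assumed to vary like the others. Of the named genes, KCNAB3 turned to 0.16 in edgeR and 0.16 in DESeq2, and from -1.09 to 0.83 with a library left out. Ranges that crossed 0 with a library left out were -0.52 to 0.047 for KCNJ2, -0.012 to 0.97 for KCNJ8, -0.032 to 0.83 for KCNK6, -1.35 to 0.19 for KCND2, -0.19 to 0.34 for KCNH2, -0.073 to 0.18 for KCNH3 and -0.039 to 1.03 for KCNQ1. The cause was not tested. KCNA5, KCNS3 and KCNRG had an unadjusted p under 0.05 in all 16 alternative fits, KCNMA1 in 10 and KCNMB1 in 3. Depth limits the scarce genes, and 40 entries could not be tested.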
